A study of Rattus norvegicus with 862 samples.

Results

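Losartan and valsartan are angiotensin receptor blockers, drugs for high blood pressure and heart failure. Angiotensin II is cut from angiotensinogen by renin and then by angiotensin-converting enzyme, and acts mainly through the AT1 receptor, a Gq-coupled receptor that constricts vessels, releases aldosterone and promotes growth of heart muscle. Both drugs block that receptor. In the heart, stretch of the wall raises the natriuretic peptides Nppa and Nppb, hormones that oppose the same system by promoting salt excretion and dilating vessels. Both compounds carry a biphenyl tetrazole, which losartan joins to a substituted imidazole ring and valsartan to an acylated valine.

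The hearts of rats given either compound were chosen from a collection of arrays on rat hearts by the compound name in the labels. They came to 25 of the 862 arrays and 20 of the 840 animals, with 14 arrays of losartan and 11 of valsartan. All animals were male Sprague-Dawley (Crl:CD) rats of 6 to 8 weeks, dosed by oral gavage, and each array held the poly A RNA of 1 animal's heart. Losartan was given in water at 1000 mg/kg for 1, 3 or 5 d, with 3 animals at each duration. Valsartan was given in corn oil, at 30 mg/kg for 0.25 d (3 animals) or 1 d (3 animals) and at 1000 mg/kg for 1 d (2 animals) or 3 d (3 animals). Each group was set against animals given the same vehicle alone, by the same route, for the same time and extracted in the same RNA campaign: 9, 9 and 10 water controls at 1, 3 and 5 d, and 3, 7 and 8 corn oil controls at 0.25, 1 and 3 d. The 2 valsartan doses shared the corn oil controls of 1 d. For 5 of the 9 losartan animals a second array came from a later RNA extraction, and these were kept apart.

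Values are log2 array signals. Calls came from limma over the 14217 genes tested and needed a p of 0.01 or less after Benjamini-Hochberg adjustment and a change of at least 1.5-fold. The heart muscle marker list had a mean level of 13.2 to 13.5 in all arrays of the losartan and valsartan groups and their matched controls of the first extraction. On the later arrays it ran from 12.2 to 13.6 in losartan animals and from 12.0 to 13.5 in water controls. Some pieces held other tissue. Albumin, made by the liver, was over 12 in 1 losartan animal at 5 d (13.4, and 13.2 on its later array), 1 animal on valsartan 30 mg/kg at 0.25 d (12.6) and 1 water control at 3 d (12.7), as well as 1 water control of the later extraction (12.07). Myl4, the atrial light chain, was over 7.5 in 6 of the 20 treated arrays of the first extraction (at 3 d of losartan 9.33, at 5 d 13.07 and 7.79, with valsartan 30 mg/kg at 0.25 d 13.24, with valsartan 1000 mg/kg at 3 d 11.20 and 11.41) and in 5 of the 46 matched controls. All losartan animals belonged to 1 in-life study that held no water controls, so that treatment and study cannot be told apart in that comparison. Its own controls were 1 animal per duration given carboxymethylcellulose (CMC), and the array of the 5 d animal had albumin at 13.61. All valsartan animals also belonged to 1 study, which held 2 corn oil controls at 0.25 d, 1 at 1 d and no control at 3 d. Valsartan and study therefore cannot be told apart at 3 d. Study, RNA extraction day and hybridisation batch were each tried as a block.

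Of the genes tested, 110 (0.774%) were called after losartan over the 3 durations, of which 57 (0.401%) rose and 53 (0.373%) fell. The genes that fell included the natriuretic peptide gene Nppb, many genes of cell division and the red cell haem gene Alas2, and those that rose included Pdk4, Fkbp5, Klf9 and Per2. Valsartan at 1000 mg/kg had 22 genes called (0.155%), raising 9 (0.0633%) and lowering 13 (0.0914%), among the latter Nppb, Rcan1 and the clock genes Bmal1, Npas2 and Clock. After valsartan at 30 mg/kg no gene (0%) passed, and 742 of the 14217 genes had an unadjusted p under 0.05. Chance alone puts a share of about 0.05 of genes under that value, here and in the counts by unadjusted p below. The methods' t-test also called 0, and the lowest adjusted p in limma was 0.069. The numbers of animals differ between these comparisons, so their counts do not rank the compounds. By duration, losartan had 1 gene higher (0.00703%) and 1 lower (0.00703%) at 1 d, 11 higher (0.0774%) and 17 lower (0.12%) at 3 d, and 42 higher (0.295%) and 39 lower (0.274%) at 5 d. Valsartan 1000 mg/kg had 2 higher (0.0141%) and 1 lower (0.00703%) at 1 d and 0 higher (0%) and 6 lower (0.0422%) at 3 d. No change differed between durations past the threshold in limma for losartan or for either dose of valsartan, with 740, 331 and 573 genes at an unadjusted p under 0.05.

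Which genes passed depended on how the in-life study was treated. With the study as a random block 29 of the 110 losartan calls remained, 24 lower and 5 higher, and Nppb, Cdk1, Mki67 and Nmrk2 were among them. The rises in Tcap (adjusted p 0.0413), Fkbp5 (0.0828), Pdk4 (0.021), Klf9 (0.0236), Per2 (0.141) and Sult1a1 (0.0462) and the falls in Alas2 (0.0106) and G0s2 (0.117) were not called there, with changes near those given below. For valsartan 1000 mg/kg 2 of the 22 calls remained, Nppb and Rcan1.

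Of 17 measured genes of the renin-angiotensin system, 0 passed the threshold in any of the 3 profiles. Over all genes 0.774%, 0% and 0.155% were called after losartan, valsartan 30 and valsartan 1000 mg/kg. With shares this low, 0 of 17 says little about the list. Its median change was 0.04 after losartan, 0.00 after valsartan 30 mg/kg and -0.01 after valsartan 1000 mg/kg. The medians over all genes were -0.0047, 0.0048 and -0.013. Ace, the converting enzyme, came nearest. In the losartan animals Ace was 7.12, 7.28 and 7.58 at 1 d, 7.10, 7.36 and 7.45 at 3 d and 6.92, 7.18 and 7.34 at 5 d. Water controls ran from 6.18 to 6.82 with a median of 6.57 at 1 d, from 6.58 to 7.19 with a median of 6.83 at 3 d, and from 6.52 to 6.95 with a median of 6.74 at 5 d. All 3 losartan animals of 1 d lay above all controls, as 1.02% of genes did at that duration, and the later groups overlapped with their controls. The change in Ace over the durations was 0.53 (95% interval 0.39 to 0.68, adjusted p 7.8e-06 in limma), a 1.45-fold difference just under the fold threshold, and 0.75 at 1 d. Valsartan left Ace at 0.19 higher at 30 mg/kg and 0.08 lower (log2 change -0.08, adjusted p 0.925) at 1000 mg/kg. Against the CMC controls of its own study the losartan change in Ace was 0.46 with an adjusted p of 0.159.

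Agtr1a, the main AT1 receptor gene, was 4.87, 4.98 and 5.17 in the losartan animals at 1 d, 5.11, 5.82 and 6.30 at 3 d and 5.26, 5.42 and 5.95 at 5 d, against water control medians of 5.04, 5.11 and 5.00. Its change was 0.39 (0.16 to 0.62, adjusted p 0.0323), not called, and the groups overlapped at each duration. The angiotensinogen gene Agt changed by 0.11, the second AT1 gene Agtr1b by -0.00, the AT2 receptor gene Agtr2 by 0.00 and the angiotensin-(1-7) receptor gene Mas1 by 0.10 after losartan.

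Downstream of the receptor, 1 of the 28 measured AT1 signalling genes was called after losartan and 1 after valsartan 1000 mg/kg, and they were different genes. Over all genes 0.774% and 0.155% were called. Rcan1, an inhibitor of calcineurin whose own gene calcineurin and NFAT switch on, fell after valsartan 1000 mg/kg. It was 8.95 and 9.54 at 1 d and 9.17, 9.53 and 9.64 at 3 d, while corn oil controls ran from 10.20 to 11.05 with a median of 10.59 at 1 d and from 10.86 to 11.59 with a median of 11.27 at 3 d. Every treated animal lay below every control at both times; 1.86% of genes did so at 1 d and 2.51% at 3 d.

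The change in Rcan1 at that dose was -1.64 (-1.93 to -1.34, adjusted p 1.18e-06), 3.11-fold lower. At 30 mg/kg Rcan1 was 10.21, 10.25 and 10.61 at 0.25 d and 9.53, 10.13 and 10.40 at 1 d, against corn oil controls of 10.10, 10.92 and 11.01 at 0.25 d. These overlapped with their controls, and the change of -0.49 (-0.84 to -0.15, adjusted p 0.573) did not pass. After losartan Rcan1 was 11.00, 11.28 and 11.60 at 1 d, 10.37, 10.47 and 11.09 at 3 d and 10.99, 11.02 and 11.68 at 5 d, with the highest animal of 1 d above its water controls (10.32 to 11.45), the 2 lowest of 3 d below theirs (10.86 to 11.85) and all of 5 d within theirs (10.95 to 11.75), and the change was -0.18 (-0.45 to 0.10, adjusted p 0.559). Against the 1 corn oil control of its own study, at 1 d only, the change in Rcan1 with valsartan 1000 mg/kg was -1.35 with an adjusted p of 0.296, and without 3 d it was -1.39 with an adjusted p of 0.108.

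Rgs4, which shortens Gq signals by speeding the hydrolysis of GTP, fell after losartan. It was 8.42, 8.43 and 8.53 at 1 d, 7.78, 7.85 and 7.86 at 3 d and 7.47, 7.48 and 7.78 at 5 d, with water controls at 8.37 to 8.90, 7.93 to 9.03 and 8.32 to 8.92. The animals of 3 and 5 d were below all their controls, those of 1 d were not; 1.43% of genes at 3 d and 1.46% at 5 d were below in this way. The change in Rgs4 over the durations was -0.66 (adjusted p 1.98e-05), and after valsartan 1000 mg/kg it was -0.39 (adjusted p 0.127). Apln, the vasodilator peptide apelin, was the 1 gene called of 23 vasoactive peptides and receptors after losartan, beside 0.774% of all genes. The change in Apln was -0.74 (adjusted p 1.58e-05). The other vasoactive genes had a median near that of all genes, at -0.07 after losartan for the list.

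Of the genes that follow load on the heart, Nppb was the one that fell with both compounds at 1000 mg/kg. After losartan Nppb was 10.46, 10.88 and 11.05 at 1 d, 9.73, 9.86 and 10.45 at 3 d and 10.62, 10.96 and 11.05 at 5 d. Water controls ran from 10.58 to 12.33 with a median of 11.89 at 1 d, from 10.83 to 12.41 with a median of 11.93 at 3 d and from 11.49 to 12.46 with a median of 12.01 at 5 d. All losartan animals of 3 and 5 d were below all controls, as 1.43% and 1.46% of genes were, and those of 1 d overlapped with the lowest of theirs.

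The losartan change in Nppb was -1.25 (SE 0.18, -1.60 to -0.89, adjusted p 1.579e-05), 2.37-fold lower, and was -0.80, -1.79 and -1.14 at 1, 3 and 5 d. Within the 4 hybridisation batches that held both groups the difference ran from -2.20 to -0.598. Against the 3 CMC controls of its own study, of which that of 5 d had albumin at 13.61, the change was -1.30 (adjusted p 0.00308).

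After valsartan 1000 mg/kg Nppb was 9.11 and 9.29 at 1 d and 9.35, 9.50 and 10.77 at 3 d, with corn oil controls at 10.54 to 11.60 (median 11.38) and 11.04 to 12.59 (median 11.91). All 5 animals were below all their controls, as 1.86% of genes were at 1 d and 2.51% at 3 d. The change was -2.05 (SE 0.21, -2.49 to -1.62, adjusted p 1.49e-05), 4.15-fold lower, and nearly equal at the 2 times, -2.08 and -2.03. Within 4 hybridisation batches it ran from -2.41 to -1.45.

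At 30 mg/kg Nppb was 9.31, 9.81 and 11.15 at 0.25 d, against corn oil controls of 10.53, 10.56 and 12.01, and 10.72, 11.06 and 11.49 at 1 d. Treated and control animals overlapped at both times. The change in Nppb was -0.51 (-1.10 to 0.09, adjusted p 0.999).

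**Figure D1:**
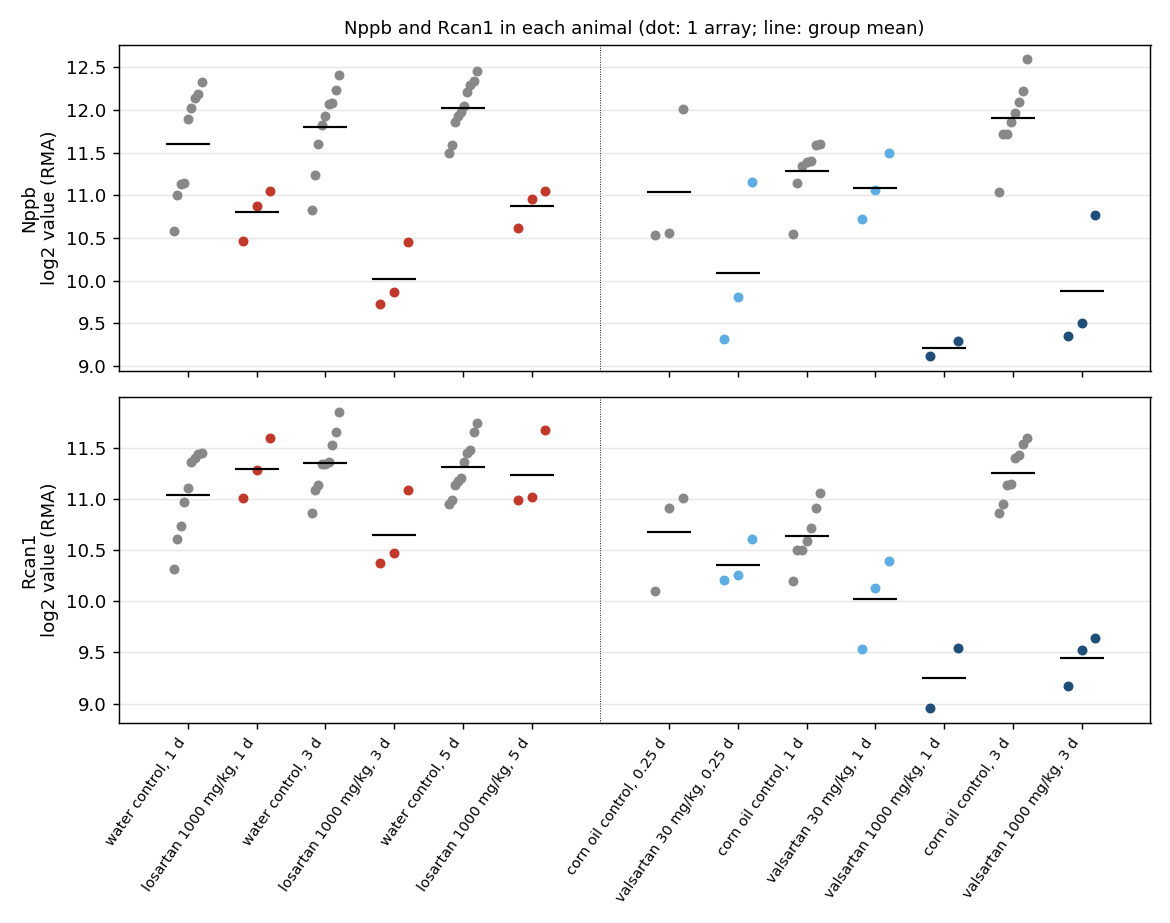
Log2 signal of Nppb and Rcan1 in each animal (dots) and the group mean (line), for water controls and losartan at 1, 3 and 5 d and for corn oil controls and valsartan at both doses. Nppb was lower in the animals of both compounds at 1000 mg/kg, and Rcan1 lay between 8.95 and 9.64 after valsartan 1000 mg/kg and between 10.37 and 11.68 after losartan.

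The atrial peptide gene Nppa showed no such pattern. It was 9.41, 9.65 and 10.50 at 1 d, 8.01, 8.85 and 11.37 at 3 d and 8.06, 10.46 and 13.89 at 5 d of losartan, and 9.15 and 10.42 at 1 d and 7.58, 12.61 and 12.81 at 3 d of valsartan 1000 mg/kg. The animals of highest Nppa at 5 d of losartan and at 3 d of valsartan were among those with Myl4 over 7.5, as was the water control of 5 d at 14.32. The change in Nppa was -0.90 (-1.76 to -0.04, adjusted p 0.246) after losartan and -0.31 (adjusted p 0.974) after valsartan 1000 mg/kg. Without the arrays with Myl4 over 7.5, a choice made after seeing the data, the losartan change in Nppa was -1.75 with an adjusted p of 0.00171, while that in Nppb was -1.28 (adjusted p 0.000738).

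Of the 21 load and hypertrophy genes, Tcap rose and Nppb fell after losartan, and Nppb alone was called after valsartan 1000 mg/kg. Over all genes 0.774% and 0.155% were called. Tcap, the titin cap of the sarcomere Z-disc, was 13.26, 13.32 and 13.52 at 1 d of losartan, 13.07, 13.08 and 13.17 at 3 d and 13.17, 13.22 and 13.46 at 5 d. Water control medians of Tcap were 12.05, 11.99 and 12.06, with a highest animal at 13.38, 13.12 and 13.16. Only the 5 d animals all lay above all controls, as 1.18% of genes did at that time. Its change was 0.97 (adjusted p 0.000756) after losartan and 0.96 (adjusted p 0.0185, not called) after valsartan 1000 mg/kg.

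Gata4, a heart transcription factor, was 0.45 lower on the log2 scale after losartan (log2 change -0.45, adjusted p 0.00048), a 1.36-fold difference that missed the fold threshold. After valsartan the change in Gata4 was -0.34 (adjusted p 0.14) at 30 mg/kg and -0.40 (adjusted p 0.0103) at 1000 mg/kg. The skeletal actin gene Acta1 changed by -0.54 (adjusted p 0.0116), the beta myosin gene Myh7 by -0.13 and the stretch gene Ankrd1 by -0.07 after losartan, none of them called.

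Genes of matrix and fibrosis (35 measured), of calcium handling and ion channels (28) and the immediate early genes (21) had 0 calls in all 3 profiles. Over all genes 0.774% were called after losartan, 0% after valsartan 30 mg/kg and 0.155% after valsartan 1000 mg/kg. The medians after losartan were -0.02 for matrix and -0.21 for immediate early genes. The marker lists of fibroblasts and endothelial cells had 0 calls as well.

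Many genes of cell division fell after losartan. Of 37 measured genes on the cell cycle list 13 were lower, beside 0.373% of all genes, 0 were higher and 35 had a change below 0, with a median of -0.43 beside -0.0047 over all genes. After valsartan 1000 mg/kg 0 were called, 36 were below 0 and the median was -0.31, and after 30 mg/kg 0 were called, 29 were below 0 and the median was -0.13. In a piece of tissue, fewer dividing cells and less of the RNA per cell cannot be told apart. The largest fall was in Cdk1, the kinase that drives entry into mitosis. After losartan Cdk1 was 5.70, 6.08 and 6.79 at 1 d, 4.86, 5.17 and 5.25 at 3 d and 4.77, 5.03 and 5.20 at 5 d. Water controls ran from 6.20 to 7.91, from 6.05 to 7.47 and from 5.88 to 7.17. The animals of 3 and 5 d were below all controls, as 1.43% and 1.46% of genes were, and those of 1 d overlapped with them.

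The change in Cdk1 was -1.50 (SE 0.17, adjusted p 3.73e-07), 2.84-fold lower. The proliferation antigen Mki67 was 4.91, 4.93 and 5.31 at 1 d, 4.43, 4.62 and 4.63 at 3 d and 4.29, 4.36 and 4.48 at 5 d, against water control medians of 6.86, 5.95 and 5.46, and changed by -1.36 (adjusted p 3.31e-06). The same pattern of separation at 3 and 5 d held for Mki67, for the DNA topoisomerase gene Top2a (-1.06) and for the G1 cyclin gene Ccnd1 (-0.96). Other lowered genes were Prc1, which bundles the microtubules of the dividing spindle, at -1.36, and the mitotic cyclin gene Ccnb2 at -1.10. Outside the list the phosphatase gene Cdkn3 (-1.20) and the Cdk1 partner Cks2 (-1.19) were also called. After valsartan 1000 mg/kg Cdk1 was 5.11 and 6.02 at 1 d and 4.93, 5.16 and 5.91 at 3 d, and corn oil controls ran from 5.60 to 8.03 and from 5.42 to 7.66, so the groups overlapped. Its change was -1.22 (-1.96 to -0.48, adjusted p 0.152), and after 30 mg/kg -0.38 (-1.05 to 0.29).

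**Figure D2:**
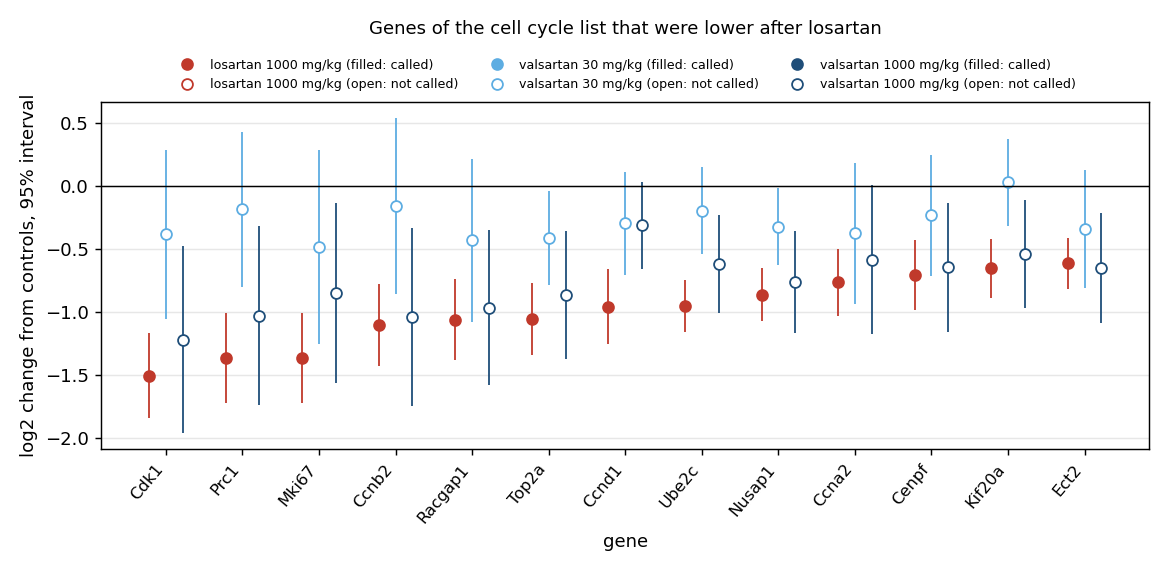
Change from matched controls (log2, point) with its 95% interval (line) for the 13 cell cycle genes that were lower after losartan, in losartan 1000 mg/kg, valsartan 30 mg/kg and valsartan 1000 mg/kg; filled points were called. For Cdk1 the changes were -1.50, -0.38 and -1.22, and the intervals of valsartan 1000 mg/kg were wider than those of losartan.

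Promoters of mitotic genes are known for a CHR element, TTTGAA, with CCAAT boxes just before it, and the bases before the start of 4 of the lowered genes are shown because they carry both. The sequences are from RefSeq, build GRCr8, the 100 bases before each gene's start on its own strand, with both motifs in capitals on either strand. The CHR element reads TTCAAA on the opposite strand and the CCAAT box reads ATTGG there, and no letters shown in capitals belong to both.
Cdk1, chr20:19265193-19265292, plus strand: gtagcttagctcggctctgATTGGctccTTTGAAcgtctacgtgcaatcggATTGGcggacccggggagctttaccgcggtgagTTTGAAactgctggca
Prc1, chr1:143659381-143659480, plus strand: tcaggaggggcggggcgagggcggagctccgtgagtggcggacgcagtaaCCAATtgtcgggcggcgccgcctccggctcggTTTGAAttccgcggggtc
Cks2, chr17:13727520-13727619, minus strand: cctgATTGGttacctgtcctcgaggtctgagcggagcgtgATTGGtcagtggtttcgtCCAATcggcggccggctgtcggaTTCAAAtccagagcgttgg
Top2a, chr10:84473094-84473193, minus strand: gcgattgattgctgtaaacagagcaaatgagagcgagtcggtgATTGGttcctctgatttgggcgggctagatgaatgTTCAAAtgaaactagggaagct
In these 4 the TTTGAA motif nearest the start came after the CCAAT boxes. Of the 37 measured genes on the cell cycle list 30 had a promoter sequence (250 bases before to 50 after the start). Only the 250 bases before the start were searched. TTTGAA was in 9 of these 30 (30.0%) and in 16.0% of all 27457 promoters of the same length. CCAAT was in 21 (70.0%), against 34.3%, and both were in 8 (26.7%), against 5.76%. A match of letters is not a bound site.

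Among red cell genes Alas2 and Tfrc fell after losartan. Alas2, the first enzyme of haem synthesis in red cell precursors, was 9.51, 9.59 and 9.74 at 1 d, 8.71, 8.83 and 8.89 at 3 d and 7.97, 8.12 and 8.19 at 5 d. Water controls of Alas2 ran from 9.55 to 11.54, from 9.64 to 10.08 and from 8.96 to 9.83, so that all animals of 3 and 5 d, but not of 1 d, were below all controls, as 1.43% and 1.46% of genes were. The change was -0.92 (adjusted p 5.43e-05), 1.90-fold lower, with -0.40, -1.01 and -1.35 at 1, 3 and 5 d.

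After valsartan 1000 mg/kg Alas2 was 9.56 and 9.63 at 1 d and 8.10, 8.11 and 8.28 at 3 d, while corn oil controls ran from 9.29 to 10.18 and from 9.03 to 9.79. The 3 d animals were below all controls, as 2.51% of genes were, and the 1 d animals overlapped with theirs. Over both times the change was -0.92 with an adjusted p of 0.0124 and was not called. At 3 d alone Alas2 changed by -1.43 (adjusted p 0.0002), which was called. At 30 mg/kg it was -0.28.

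Hbb, the beta globin of mature red cells, was 13.57, 13.59 and 13.60 at 1 d of losartan, 13.33, 13.37 and 13.47 at 3 d and 12.68, 13.01 and 13.14 at 5 d, with water control medians of 13.72, 13.70 and 13.59. Its change was -0.35 (adjusted p 0.00133), under the fold threshold, and after valsartan 1000 mg/kg -0.37 (adjusted p 0.153). Of 16 measured red cell genes 2 were called lower after losartan, Alas2 and the transferrin receptor gene Tfrc, beside 0.373% of all genes. On that list 14 were below 0, with a median of -0.11. Tfrc, which takes iron-loaded transferrin into cells, was lowest at 1 d (9.98, 10.33 and 10.51 against 11.05 to 11.77 in controls) and its change was -0.78 (adjusted p 6.16e-06), with -1.21, -0.79 and -0.36 at 1, 3 and 5 d. After valsartan 1000 mg/kg 0 red cell genes were called over both times, with a median of -0.13. The part of blood left in each piece of heart was not tested.

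**Figure D3:**
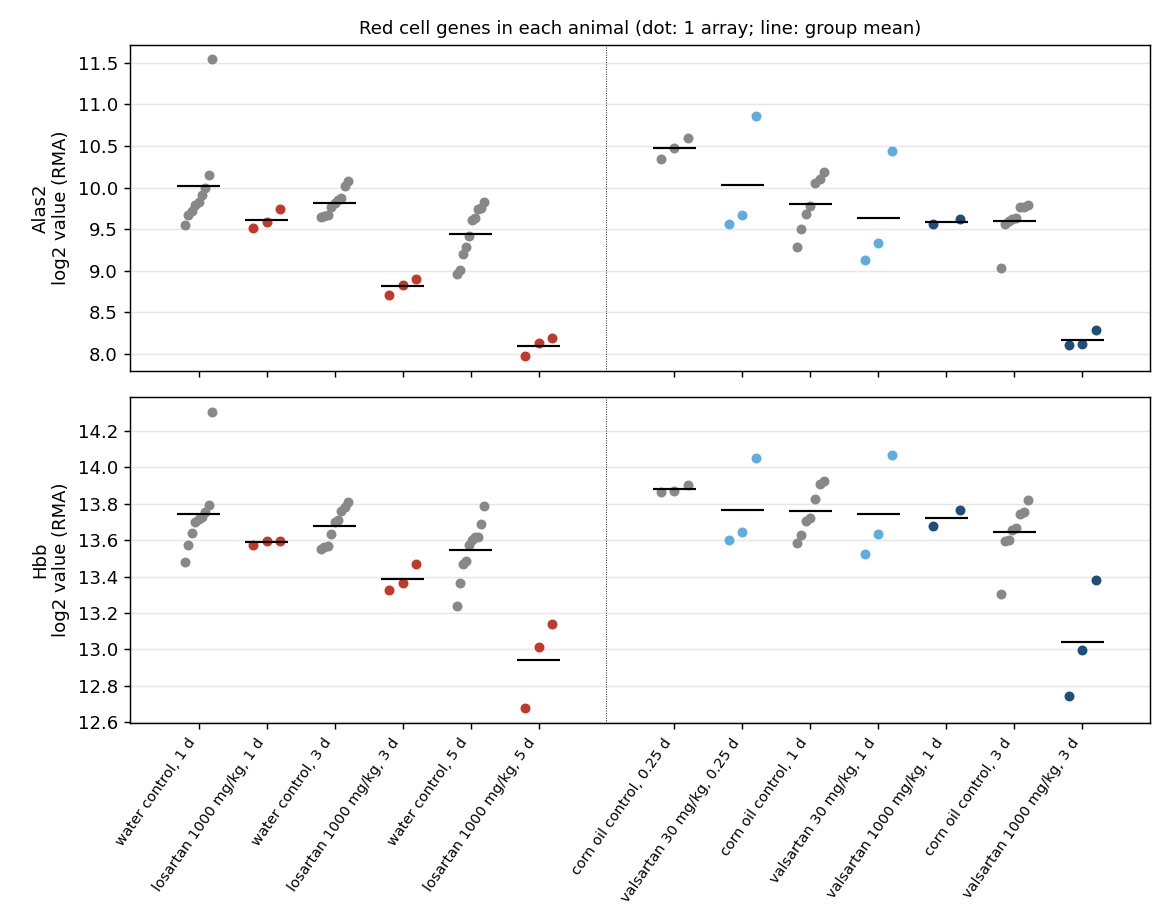
Log2 signal of Alas2 and Hbb in each animal (dots) and the group mean (line) for the same groups of vehicle and compound. Alas2 was 7.97 to 8.19 at 5 d of losartan and 8.10 to 8.28 at 3 d of valsartan 1000 mg/kg, below every control of those times.

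Clock genes were called in both profiles at 1000 mg/kg. Bmal1 and its partners Clock and Npas2 form the activator of the circadian clock; Per2 is a repressor that they switch on, and Tef, Hlf and Dbp are output factors. Of 17 measured clock genes 2 rose after losartan (Per2 and Tef), beside 0.401% of all genes. After valsartan 30 mg/kg 0 were called, beside 0% of all genes. After valsartan 1000 mg/kg 3 rose (Per2, Tef and Hlf), beside 0.0633%, and 3 fell (Bmal1, Npas2 and Clock), beside 0.0914%. Per2 was 9.33 and 9.80 at 1 d and 8.84, 9.22 and 9.32 at 3 d of valsartan 1000 mg/kg, above all corn oil controls (6.82 to 8.84 and 6.81 to 8.17). At 1 d 2.07% and at 3 d 0.724% of genes were above in this way. Its change was 1.89 (adjusted p 0.0017). After 30 mg/kg the change in Per2 was 1.61 (adjusted p 0.0722), and after losartan 1.11 (adjusted p 0.0069), with 1.65, 0.90 and 0.79 at 1, 3 and 5 d. The losartan animals overlapped with water controls at each duration for Per2 and for Tef. The losartan call was lost in 9 of 15 other settings for Per2 and in 7 for Tef. With 1 animal left out it was lost in 9 of 37 fits for Per2 and in 2 for Tef.

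Bmal1 was 5.44 and 5.51 at 1 d and 5.88, 5.93 and 6.20 at 3 d of valsartan 1000 mg/kg, a change of -2.08 (adjusted p 0.0096). Corn oil controls ran from 5.84 to 8.73 at 1 d and from 5.99 to 8.93 at 3 d. The treated animals of 3 d overlapped with the lowest control. The call was lost in 17 of 20 fits with 1 animal left out and in 8 of 14 other settings. After losartan Bmal1 was 5.80, 6.01 and 6.41 at 1 d, 7.27, 7.43 and 7.44 at 3 d and 6.95, 7.13 and 7.51 at 5 d, inside the range of the water controls (5.82 to 8.64, 5.70 to 8.73 and 5.87 to 8.52) except for 1 animal of 1 d, and the change was -0.99 (adjusted p 0.0518). At 30 mg/kg it was -1.40 (adjusted p 0.153), from values of 5.55 to 5.89 at 0.25 d and 5.89 to 6.13 at 1 d.

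Bmal1 also spread widely among the controls themselves. In 6 matched control groups the animal of lowest Bmal1 had the highest Per2 of its group in 5, the highest Tef in 5, the lowest Npas2 in 5 and the highest Tcap in 4. It had the highest Klf9 and the highest Rhobtb1 in 2 each, and the lowest Nppb, Cdk1 or Alas2 in 1 each. It also had the highest Nppb or Alas2 in 1 each. The groups held 3 to 10 animals, so some such matches arise by chance. The study collected hearts in the early afternoon at 0.25 and 1 d and in the morning at 3 and 5 d. The hour of each animal was not given in the sources used here, and its part in these differences was not tested. The corn oil control of the valsartan study had Bmal1 at 7.25 at 1 d, and the CMC controls of the losartan study at 7.35, 8.40 and 8.07. Against own-study controls Per2 changed by 1.51 (adjusted p 0.0152) after losartan and 2.12 (adjusted p 0.0132) after valsartan 1000 mg/kg, neither called.

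**Figure D4:**
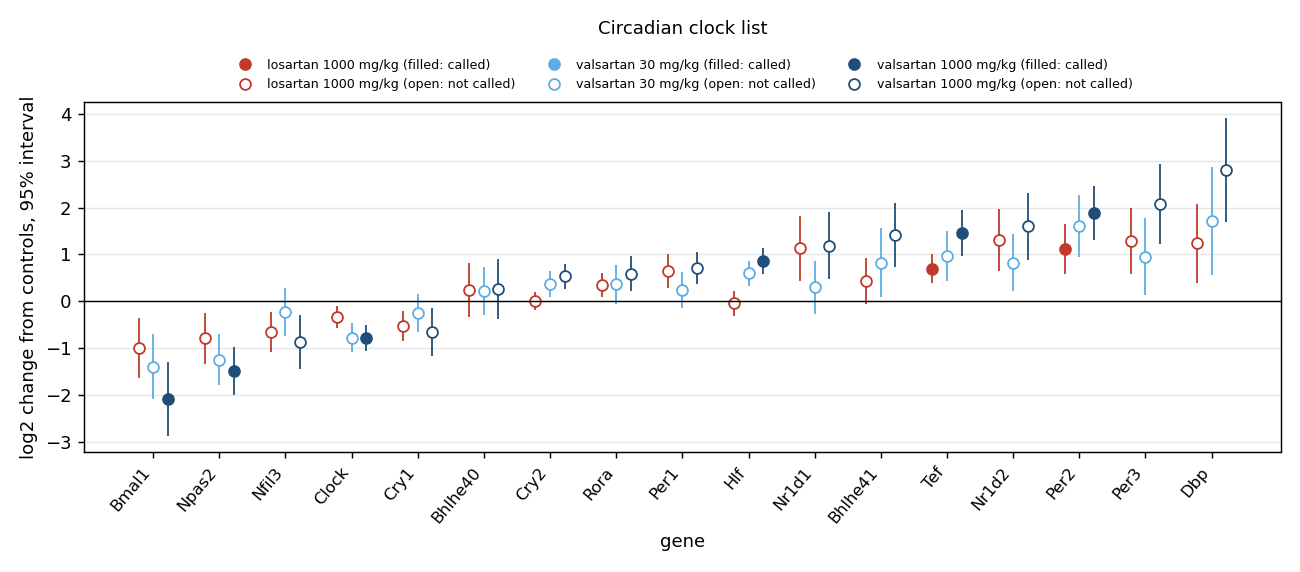
Change from matched controls (log2, point) with its 95% interval (line) for the 17 measured clock genes, in losartan 1000 mg/kg and valsartan 30 and 1000 mg/kg; filled points were called. Per2 changed by 1.11, 1.61 and 1.89 and Bmal1 by -0.99, -1.40 and -2.08.

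Some genes that glucocorticoids raise were higher after losartan. Of 19 measured targets 4 were called, all higher, beside 0.401% of all genes. All 19 had a change above 0 and the median was 0.40, with 0.04 at 1 d, 0.54 at 3 d and 0.78 at 5 d. The medians were 0.07 and 0.14 after valsartan 30 and 1000 mg/kg, with 0 called, beside 0% and 0.155% of all genes. The 4 were the steroid receptor co-chaperone Fkbp5, the transcription factor Klf9, the metal-binding protein Mt2A and the NF-kB inhibitor Nfkbia. Fkbp5 was 8.68, 8.70 and 8.95 at 1 d of losartan, 9.04, 9.19 and 9.49 at 3 d and 9.78, 9.84 and 9.90 at 5 d, and its water controls had medians of 8.06, 8.10 and 7.94 and highest animals of 9.09, 9.81 and 9.60. The 5 d animals were above all controls, as 1.18% of genes were, and the earlier ones overlapped. Its change was 1.14 (adjusted p 0.0021). With valsartan 1000 mg/kg Fkbp5 was 8.68 and 9.02 at 1 d and 6.94, 7.26 and 7.60 at 3 d, against corn oil controls of 7.13 to 8.94 and 7.14 to 8.60, near or above the highest control at 1 d and at the low end at 3 d. Klf9 changed by 0.79 (adjusted p 0.00025), Nfkbia by 1.06 (0.0062) and Mt2A by 0.81 (0.0065). Tsc22d3 (0.40, adjusted p 0.0245) and the kinase Sgk1 (0.16, adjusted p 0.726), which mineralocorticoids also raise, were not called. With study as a random block none of the 4 was called (adjusted p 0.0236 to 0.156). Without the arrays with Alb over 12, of which 1 was a losartan array and 1 a control, the rises in Mt2A and Nfkbia had adjusted p of 0.0395 and 0.0268 and were not called, and without arrays with Myl4 over 7.5 none of the 4 was (adjusted p 0.0167 to 0.122).

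Other called genes take part in fuel use and drug metabolism. Pdk4, which keeps pyruvate out of the mitochondrion and so favours fat as fuel, rose after losartan. It was 11.63, 12.12 and 12.37 at 1 d, 11.96, 12.14 and 12.60 at 3 d and 12.61, 12.71 and 13.24 at 5 d, against water control medians of 10.54, 10.83 and 10.61. The 5 d animals were above all controls, as 1.18% of genes were, and the rest overlapped with the highest controls. The change in Pdk4 was 1.49 (adjusted p 0.00021). Pdk4 was the only one of 35 measured PPAR targets and fatty acid oxidation genes that was called, beside 0.774% of all genes. The list median was 0.13.

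The sulfotransferase gene Sult1a1 had the largest rise with losartan, 1.54 (adjusted p 0.00083), from 8.47, 8.53 and 8.89 at 1 d, 8.75, 8.93 and 9.30 at 3 d and 9.43, 9.55 and 9.64 at 5 d, against control medians of 7.56, 7.24 and 7.06. The alcohol dehydrogenase gene Adh1c changed by 1.06 (adjusted p 0.0077) and the oxygenase gene Cyp1a1 by 1.12. The liver list (18 measured) had 0 called and a median of 0.26 after losartan. Without arrays with Alb over 12 the change in Sult1a1 was 1.45 (adjusted p 0.00435) and that in Adh1c 1.02 (adjusted p 0.029, not called). The epoxide hydrolase gene Ephx1 rose by 0.75 (adjusted p 0.00325) after losartan and by 1.28 (adjusted p 0.0030) after valsartan 1000 mg/kg. The triglyceride synthesis gene Dgat2 rose by 0.91 (adjusted p 0.00133) and 0.95 (adjusted p 0.0087). After losartan the animals overlapped with controls at 3 and 5 d for Ephx1 and at each duration for Dgat2. Other large changes after losartan were rises in Tent5b (1.46), the protocadherin gene Pcdh20 (1.12) and the phospholipase gene Pla2g4a (1.06) and a fall in the lipoxygenase gene Alox15 (-1.15).

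Lower genes of metabolism were Nmrk2, a nicotinamide riboside kinase of muscle, and G0s2, an inhibitor of the fat lipase ATGL. Nmrk2 was 6.76, 7.51 and 7.65 at 1 d, 5.59, 6.42 and 6.84 at 3 d and 5.96, 6.07 and 6.22 at 5 d of losartan. Its water controls were at 7.74 to 8.71, 7.01 to 8.55 and 7.42 to 8.20. All 9 losartan animals were below all controls of their time, as 1.46%, 1.43% and 1.46% of genes were at 1, 3 and 5 d. The change in Nmrk2 was -1.36 (adjusted p 4.19e-07). G0s2 fell by 1.27 (adjusted p 0.0040) after losartan and by 1.59 (adjusted p 0.0076) after valsartan 1000 mg/kg. The losartan animals overlapped with controls at each duration for G0s2. Its call was lost in 8 of 15 other settings for losartan and in 8 of 14 for valsartan 1000 mg/kg. The F-box gene Fbxl22, a muscle gene of the sarcomere, fell with both, by 0.96 (adjusted p 1.12e-06) and 0.83 (adjusted p 0.0047).

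Ckap4, a membrane protein of the endoplasmic reticulum, fell with valsartan 1000 mg/kg. It was 6.94 and 7.25 at 1 d and 7.01, 7.20 and 7.36 at 3 d against corn oil controls of 7.48 to 8.19 and 7.81 to 8.42, with no overlap, as for 1.86% and 2.51% of genes in this direction, and its change was -0.89 (adjusted p 0.000136). Other genes it lowered were the transporter gene Slc41a3 (-1.14), Mall (-0.94), the lipase-like gene Pnpla3 (-0.92), Tp53i11 (-0.77) and the chaperone gene Dnajb5 (-0.63). Those it raised included the unfolded protein response gene Herpud1 (0.69), the desmosome gene Ppl (0.74), Cys1 (0.73) and Mid1ip1 (0.64), a regulator of fat synthesis. Herpud1 was the 1 gene called of 18 on its list, beside 0.155% of all genes, and 16 of the 18 were below 0. With 1 animal left out, the valsartan calls were lost in 15 of 20 fits for Herpud1 and Dgat2. They were lost in 13 for Mall and Dnajb5 and in 12 for G0s2, but in 0 for Nppb, Rcan1 and Ckap4.

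The 2 compounds were compared at matched dose and time in 3 pairs: losartan against valsartan at 1000 mg/kg at 1 d and at 3 d, each as the change from its own vehicle, and valsartan 1000 against 30 mg/kg at 1 d. No gene (0%) passed in any pair in limma after adjustment over all genes and the 3 pairs together. Of the 14217 genes, 697, 470 and 420 had an unadjusted p under 0.05, where chance gives a share of about 0.05. The lowest adjusted p was 0.382 in each pair. This does not show that the compounds act alike, because the 95% intervals reached to a median of 1.31-, 1.28- and 1.27-fold on either side of the difference and lay wholly within 1.5-fold for 57.2%, 72.2% and 74.2% of genes.

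For some of the genes described above the 95% interval of the difference did not hold 0. These intervals are not adjusted for the number of genes, and none of the differences passed. Rcan1 was higher after losartan than after valsartan, by 1.65 (0.97 to 2.32, adjusted p 0.382) at 1 d and 1.10 (0.49 to 1.72, adjusted p 0.788) at 3 d. Nppb was higher after losartan by 1.28 (0.28 to 2.28, adjusted p 1.00) at 1 d and by 0.24 (-0.67 to 1.15) at 3 d. Ace was higher after losartan by 0.82 (0.41 to 1.23, adjusted p 0.479) at 1 d and 0.52 (0.15 to 0.89) at 3 d. For Fkbp5 the difference at 3 d was 1.62 (0.55 to 2.69) and for Ckap4 0.88 (0.41 to 1.34, adjusted p 0.737).

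For Cdk1 the compounds differed by -0.11 (-1.37 to 1.15) at 1 d and -0.40 (-1.55 to 0.75) at 3 d, and for Alas2 by -0.19 (-0.94 to 0.55) and 0.42 (-0.25 to 1.10). These intervals hold 0 and also hold differences of more than 1.5-fold. Between the valsartan doses at 1 d Nppb was lower at 1000 than at 30 mg/kg by 1.89 (difference -1.89, -2.76 to -1.01, adjusted p 0.416), with 9.11 and 9.29 against 10.72, 11.06 and 11.49. Rcan1 differed by -0.77 (-1.36 to -0.18) and Cdk1 by -0.70 (-1.81 to 0.40).

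**Figure D5:**
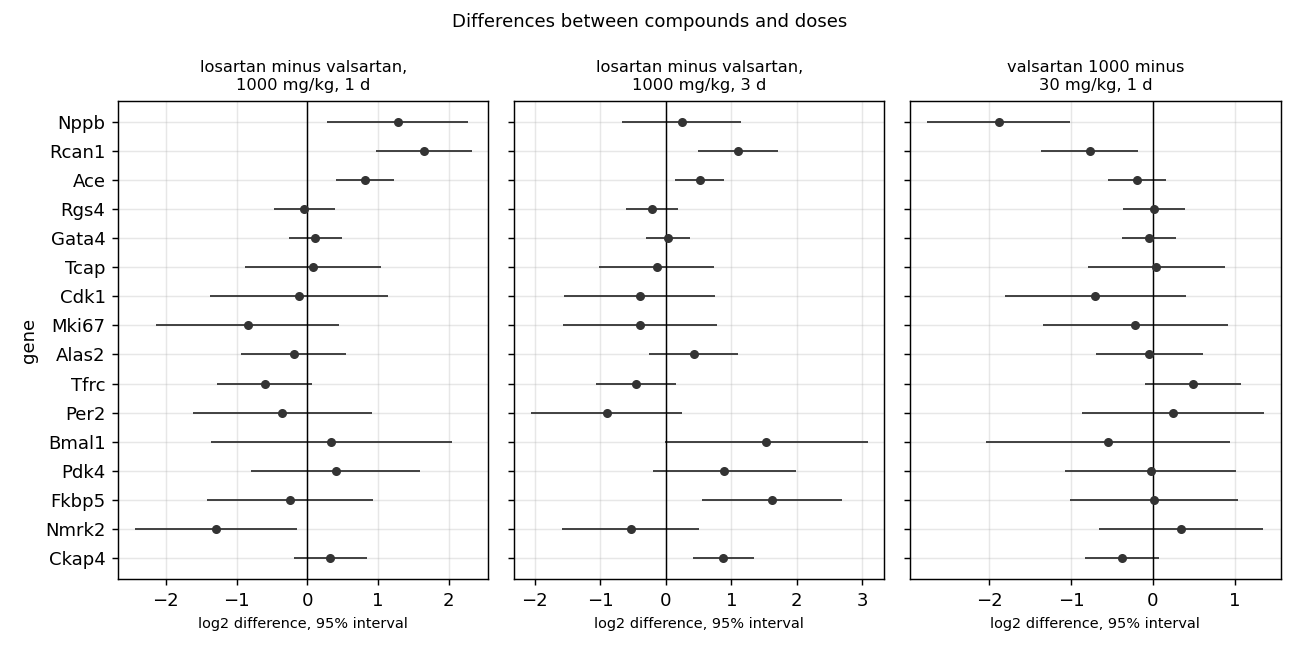
Difference (log2, point) with its 95% interval (line) for 16 genes in the 3 pairs, losartan minus valsartan at 1000 mg/kg at 1 d and at 3 d and valsartan 1000 minus 30 mg/kg at 1 d. The interval for Rcan1 was above 0 in both pairs of compounds (0.97 to 2.32 and 0.49 to 1.72), and the interval for Nppb was below 0 between the doses (-2.76 to -1.01). The intervals are not adjusted for the number of genes, and no difference passed.

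Candesartan, another AT1 blocker, and angiotensin II itself were also in the collection at other doses, vehicles or routes, and their values are set beside these with no comparison. Candesartan was given at 1300 mg/kg in CMC for 1, 3 or 5 d (9 animals, 27 controls) and had 50 genes called (0.352%), 42 higher (0.295%) and 8 lower (0.0563%). Nppb changed by -0.75 (adjusted p 0.0194), Rcan1 by -0.34, Cdk1 by -0.24 and Alas2 by -0.18. Tcap (0.77), Klf9 (0.62) and Pdk4 (1.02) rose and G0s2 (-1.18) and Fbxl22 (-0.65) fell after candesartan. Of the 19 measured glucocorticoid targets 5 were called higher after candesartan, beside 0.295% of all genes. Their median was 0.58 and 17 were above 0, so the rise in this list was not particular to losartan. Angiotensin II by mini-pump at 0.5 mg/kg (9 animals, 9 controls) and 0.72 mg/kg (6 animals, 4 controls) had 0 genes called (0%) over the durations, with 1773 and 1190 genes at an unadjusted p under 0.05. By duration, 0.72 mg/kg had 6 of the 14217 genes called at 3 d (3 animals, 2 controls), 5 higher and 1 lower, and 0 at 5 d. At 0.5 mg/kg 0 were called at each duration. The 35 matrix genes had 0 calls over the durations, medians of 0.15 and 0.48, and 28 and 31 above 0. Nppa changed by 1.04 (adjusted p 0.323) and 1.85 (adjusted p 0.0172), and Nppb by 0.03 and -0.47. The glucocorticoid targets had 0 calls after angiotensin II, with medians of -0.17 at 0.5 mg/kg and 0.48 at 0.72 mg/kg.

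Hearts of 5 losartan animals (3 at 3 d, 2 at 5 d) were extracted and hybridised again with 18 water controls of the later campaign, of which 1 control animal was shared with the first. In this set 60 genes were called (0.422%), 51 (0.359%) higher and 9 (0.0633%) lower. The correlation with the mean array was 0.935 for losartan 3 d replicate 2 and 0.92 for 1 water control of 5 d. On the other arrays of this set it was 0.972 or more. Myl4 was over 7.5 on 4 of the 5 losartan arrays (11.12 to 12.82) and on 2 of the 18 controls. The atrium list of 8 genes had a median change of 1.82, with 8 above 0 and 1 called, and the fibroblast list had a median of 0.32. Without the arrays with Myl4 over 7.5, 13 genes were called, 11 of them among the 60. All 110 genes called in the first extraction had the same sign in the second, where 62% of all genes did, and 31 were called in both. The animals are the same, so this repeats the measurement and not the treatment. Cdk1 (-1.39, adjusted p 0.0029), Nmrk2 (-1.59, adjusted p 0.0029), Pdk4 (1.80, adjusted p 0.0029) and Per2 (1.00, adjusted p 0.0027) were called again. Cdk1, Mki67, Alas2, Per2, Pdk4, Nmrk2 and Rgs4 had the same sign in 5 of 5 animals on both arrays. Nppb was less steady: its repeat arrays were 9.57, 10.30 and 10.55 at 3 d and 10.12 and 12.03 at 5 d, 4 of 5 animals kept the sign, and the change was -1.03 with an adjusted p of 0.412, with repeat controls from 8.90 to 12.85.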

How the data were processed

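Poly A RNA of rat hearts was hybridised to Affymetrix whole-genome rat arrays. The authors deposited log2 values per probe set, and the submitters' processing notes name RMA (no version) while frma and frmaTools stand in the paper's methods; which of them made these values was not stated in the sources used here. Values ran from 3.15 to 14.8 and 0 array columns were left out. Groups came from the labels. Of 31099 probe sets, 20826 carried 1 gene symbol; each of 14217 genes was read from its probe set of highest mean. Animals with 2 arrays entered with the first extraction. Treated animals were compared with matched vehicle controls with lmFit and eBayes of limma 3.58.1 (R 4.3.3) and duration as a factor, and with statmod 1.5.0 for random blocks and version 1.17.8 of data.table. The fits were tested on simulated data. Python 3.11.15, pandas 2.3.3 and matplotlib 3.10.9 were used for summaries and plots. Arrays have no depth; the number of animals limits the precision. Genes named came from the 10 largest called changes in each direction with the same sign at each duration, of which 1 is not reported here, and from the pathway lists; others named were chosen after their values were seen. Members and lists were chosen with earlier results of these data known. Alternatives were the normalization, probe set choice, a filter on dim genes, the methods' t-test, controls of every campaign or of the own study, study, extraction day and hybridisation batch as blocks, arrays of high Alb or Myl4 left out, and each animal or duration left out.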

Additional observations from a re-analysis of the deposited data

Results flagged for a closer look

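In 160 combinations of a control group and one of 32 genes, 20 had an animal farther from its group than Dixon's 95% value allows, where chance gives about 1 in 20. Several of them were the same animals. One corn oil control of 3 d had Alas2 at 9.03, Hbb at 13.3, Bmal1 at 5.99, Clock at 8.32 and Npas2 at 6.43, the lowest of its group, and Ephx1 at 8.03, the highest. One water control of 1 d had Clock at 7.73 and Npas2 at 5.32, the lowest, with Tef at 9.28 and Dgat2 at 8.4, the highest. Another water control of 1 d had Alas2 at 11.5 and Hbb at 14.3, the highest. At 3 d one water control had Bmal1 at 5.7 and Npas2 at 5.82, the lowest, and another had Fkbp5 at 9.81, the highest, with Rgs4 at 7.93, the lowest. At 5 d one water control had Ephx1 at 8.09, the highest, and Ckap4 at 7.6, the lowest. The highest Nppa of the water controls of 5 d was 14.3, on an array with Myl4 at 12.7. A further corn oil control of 3 d had the lowest Tfrc, at 10.4.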

How the results depend on the processing

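No paired analysis was possible because the labels number animals separately in each group. The fall in Nppb after losartan was called under all 15 alternatives and the fall after valsartan 1000 mg/kg under 12 of 14, with adjusted p of 0.0146 without 1 d and 0.0244 without 3 d. The losartan count of 110 was 29 with study as a random block, 31 with extraction day as a fixed block, 47 without arrays with Myl4 over 7.5 (a choice made after seeing the data), 41 without 3 d, 26 without 5 d and 52 against own-study controls, and 81 to 131 with 1 animal left out. Its count of changes between durations, 0, was 1 with the upper 60% of genes, with controls of every campaign, with the study block and in 1 fit of group means, 53 without arrays with Myl4 over 7.5, which leaves 1 animal at 5 d, and 0 to 4 with 1 animal left out. For valsartan 30 mg/kg the count of 0 was 1 without arrays with Alb over 12, without those with Myl4 over 7.5, without 1 d and in the fit of group means, 4 against own-study controls and 0 to 6 with 1 animal left out (6 without corn oil 1 d replicate 6). The valsartan 1000 mg/kg count of 22 was 36 after quantile normalization, 6 by the methods' t-test, 2 with the study block, 52 with hybridisation batch as a block, 3 without arrays with Myl4 over 7.5, 5 without 1 d, 0 without 3 d, 6 against own-study controls and 38 in the fit of group means; leaving out 1 animal gave 3 (1 d replicate 1) to 41 (corn oil 3 d replicate 10). Its changes between durations, 0, were 1 without arrays with Myl4 over 7.5 and 0 to 13 (without 1 d replicate 1). The repeat extraction's 60 was 13 without arrays with Myl4 over 7.5 and 18 to 146 with 1 losartan animal left out (146 without 3 d replicate 2); its controls were not left out in turn. The pair of compounds at 1 d had 0 to 1 called with 1 animal left out, that at 3 d had 1 without arrays with Myl4 over 7.5, and the dose pair had 0 to 3. Rcan1 after losartan turned to 0.082 without 3 d and 0.060 against own-study controls. The cause was not tested.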
